A study of Mus musculus with 8 samples.

Results

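The 52 collagen and laminin chain genes described here were every gene of the mouse array whose single platform symbol named a collagen alpha chain (Col followed by numbers) or a laminin alpha, beta or gamma chain (Lama, Lamb, Lamc), out of 18193 genes with such a symbol. They were read on 8 Affymetrix arrays of mouse retina, 1 sample per array. The 4 control samples were freshly dissected retinas labelled as time 0 d, and the 4 injected samples were retinas whose treatment is labelled only as compound-based. Compound, dose, route and interval, like strain, sex, age and genotype, are not in the labels, and no sham injection is among the samples. Effects of injecting, of the compound and of how tissue was handled therefore cannot be told apart. Nothing says that different animals gave the 4 samples of a group, so the p-values speak for the spread among these samples, which may be technical.

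Collagens are built from 3 chains wound into a triple helix. Fibrillar collagens assemble into the banded fibres of sclera, vessel walls and vitreous, whereas type IV collagen forms the flat network of basement membranes. Laminins join an alpha, a beta and a gamma chain, and they lay down the sheet on which that network is built. In the eye such sheets line the inner surface of the retina, its blood vessels and the pigment epithelium, and Müller glia, vascular cells and pigment epithelium are known sources of their chains.

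The members fell into 11 fibrillar chains, 16 basement membrane chains (6 of type IV collagen and 10 laminins) and 25 other collagen chains. A gene's level came from its brightest probe set (by mean over all 8 arrays), as log2(intensity + 16) after quantile normalisation of the deposited intensities. A probe set was tested if its mean lay at or above a floor of log2 8.50, and 37 of the 52 members were (9 fibrillar, 9 basement membrane, 19 other). The 15 untested members are dim, and their values are given with no test. Levels of different genes are not set against each other, since probe sets differ in brightness.

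Of the 9 tested basement membrane chains 8 had a negative difference (injected minus control) and of the 9 tested fibrillar chains 3, beside 6638 of 12886 tested genes. Over all members, dim ones included, 10 of 16 basement membrane chains were negative (5 of 6 type IV chains, 5 of 10 laminins) and 5 of 11 fibrillar chains, beside 49.8% of all genes. By limma, 0 of the 37 tested members passed Benjamini-Hochberg adjustment over all probe sets (smallest adjusted p = 0.547), as did 0 of 27022 probe sets. At an unadjusted p under 0.05 by limma there were 6 members (16.2%), 2 higher and 4 lower, against 6.68% of all 12886 tested genes (3.77% higher, 2.91% lower). The 2 higher were Col25a1 and Col15a1, and the 4 lower were Lamb1, Col4a3, Col19a1 and Col22a1. The control and injected values did not overlap at 5 tested members, 1 higher and 4 lower, against 5.5% of all tested genes (2.85% higher, 2.65% lower). Among these, Lama2 and, among the 6, Col22a1 passed the floor only through their control values. The median difference over all members on the array was -0.27 for the 16 basement membrane chains, 0.068 for the 11 fibrillar chains and -0.21 for the 25 others, beside 0.0018 over all genes. That of the basement membrane chains was -0.15 without control replicate 1 and -0.11 with the deposited scaling kept. Whether the classes differ from each other was not tested.

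**Figure D1:**
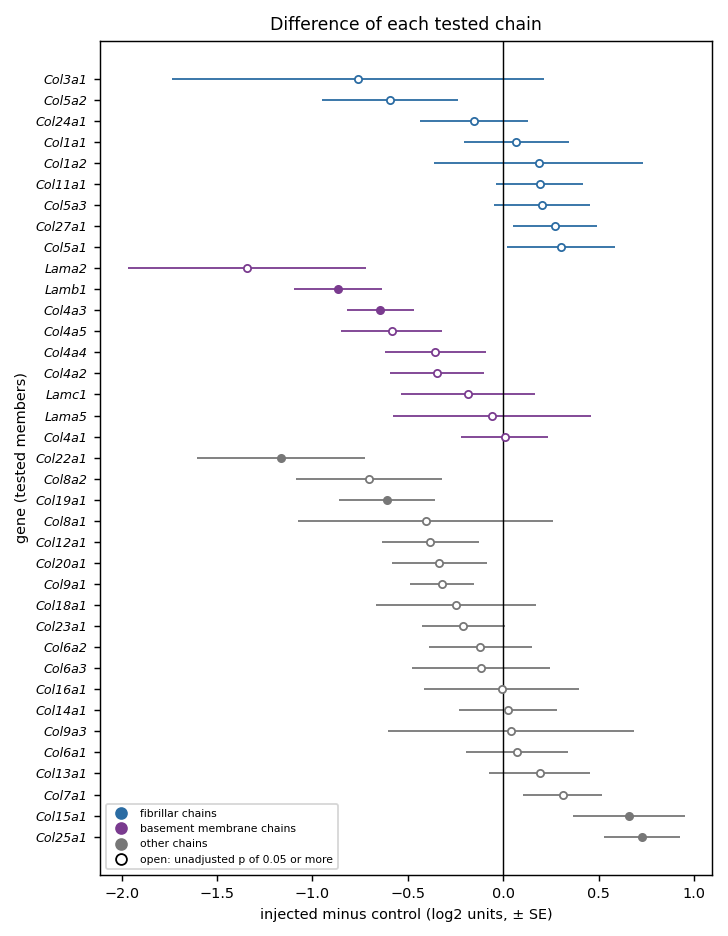
Difference between injected and control retina (log2 units, points with SE) for the 37 tested members, coloured by class, with filled points for an unadjusted p under 0.05 by limma. Of 9 basement membrane chains 8 lie left of 0, and of 9 fibrillar chains 6 lie right of it.

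Several of the chains on the lower side have a start site whose upstream bases are in the RefSeq promoter table (GRCm38.p6). Those of Lamb1, Col4a5, Col4a6 and Col9a1 are shown as examples, picked by no fixed rule. Of these, only Lamb1 had an unadjusted p under 0.05 by limma, and Col4a6 was not tested. Col4a3, Col19a1 and Col22a1, also lower at that threshold, are not shown. Col4a5 and Col4a6 are neighbours on the X chromosome, transcribed away from each other. Each stretch lies outside every annotated gene and runs 5′ to 3′ on the gene's strand. Where a CCAAT motif (either strand) is present, it is in capitals.
Lamb1 (chr12:31265093-31265145, plus strand): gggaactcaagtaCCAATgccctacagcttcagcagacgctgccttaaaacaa
Col4a5 (chrX:141475169-141475369, plus strand): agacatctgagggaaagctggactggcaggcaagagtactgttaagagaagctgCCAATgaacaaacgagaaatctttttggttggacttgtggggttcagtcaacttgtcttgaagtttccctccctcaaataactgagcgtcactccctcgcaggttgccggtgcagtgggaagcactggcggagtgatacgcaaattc
Col4a6 (chrX:141474096-141474326, minus strand): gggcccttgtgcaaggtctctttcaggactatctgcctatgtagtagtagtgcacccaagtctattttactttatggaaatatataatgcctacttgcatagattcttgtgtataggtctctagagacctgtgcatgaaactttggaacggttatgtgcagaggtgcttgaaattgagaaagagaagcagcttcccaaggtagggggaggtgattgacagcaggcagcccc
Col9a1 (chr1:24177360-24177588, plus strand): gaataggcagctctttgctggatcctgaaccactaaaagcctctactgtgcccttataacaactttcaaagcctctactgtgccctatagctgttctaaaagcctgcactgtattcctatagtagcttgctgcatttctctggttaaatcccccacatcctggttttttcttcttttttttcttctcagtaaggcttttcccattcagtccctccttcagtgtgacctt
The motif occurs once in the Lamb1 stretch and once in that of Col4a5, and these letters are not in the other pair. Of the 52 members, 38 had 42 windows of 300 bases in the table (250 before the start and 50 after). CCAAT was in 33.3% of these windows against 37.4% of all 32851, the GC box GGGCGG in 59.5% against 35.7%, and the TATA motif TATAAA in 11.9% against 13.6% (both strands searched, overlaps between motifs allowed). A match describes the letters only.

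Among the laminins, Lamb1, the beta 1 chain found in many basement membranes, had the smallest p of the 4 tested. Its log2 values were 13.06, 13.52, 12.68 and 13.36 in control replicates 1 to 4 and 12.54, 12.40, 12.01 and 12.20 in injected replicates 1 to 4. Every injected value lay below every control value, and injected replicate 3 was the lowest. The means were 13.15 ± 0.37 and 12.29 ± 0.23 (SD, n = 4 each). By limma the difference was -0.87 ± 0.23 (SE; unadjusted p = 0.00431, adjusted p = 0.547), or 1.82-fold. This probe set has a name ending in s_at and can bind related transcripts. A second tested one had -0.57 ± 0.24 (SE; unadjusted p = 0.041 by limma), and of 2 dim ones 1 had -1.17 and 1 had 0.19.

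Lama2, the alpha 2 chain of vessel and muscle basement membranes, also had no overlap. It was at 9.43, 10.32, 9.36 and 9.31 in control and at 6.16, 9.27, 8.58 and 9.03 in injected retina. Injected replicate 1 alone lay more than 2 log2 units below the rest, and the highest injected value (replicate 2) was just under the lowest control value. The difference was -1.34 ± 0.62 (SE; unadjusted p = 0.0586, adjusted p = 0.725 by limma), and without injected replicate 1 it was -0.64. The injected mean, 8.26, was below the floor, so Lama2 was tested only through its control values (mean 9.60).

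The other tested laminins overlapped between groups. Lamc1, the gamma 1 chain shared by most laminins, was at 9.39, 9.23, 9.52 and 8.78 in control and 9.32, 8.92, 8.12 and 9.83 in injected retina (difference -0.19 ± 0.35, SE). Its sign turned without injected replicate 3 (0.12). Lama5, the alpha 5 chain, was at 10.01, 7.86, 10.03 and 9.58 against 8.91, 8.54, 9.86 and 9.93 (-0.059 ± 0.52, SE), with control replicate 2 as the lowest array.

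The remaining 6 laminins were below the floor. Lama1, a chain of the membrane on the inner face of the retina, was at 8.59, 8.08, 8.79 and 8.70 in control and 7.98, 9.35, 6.54 and 8.44 in injected retina, so injected values reached past the controls on both sides. Lamb2, the beta 2 chain that takes part in photoreceptor synapses, was at 9.09, 9.19, 6.31 and 8.08 against 8.57, 7.59, 9.20 and 8.57. Lama3, Lama4, Lamb3 and Lamc3 had differences from 0.46 to 0.85, and both groups overlapped at each of the 6.

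Type IV chains assemble in set trimers: alpha 1 with alpha 2 in nearly all basement membranes, alpha 3 with alpha 4 and alpha 5, and alpha 5 with alpha 6. Of the tested chains, Col4a3, the alpha 3 chain, was the one whose groups did not overlap. It was at 10.32, 10.51, 10.21 and 10.12 in control and at 9.47, 9.63, 9.68 and 9.80 in injected retina. No injected value reached the lowest control value. The means were 10.29 ± 0.17 and 9.65 ± 0.14 (SD, n = 4 each). By limma the difference was -0.64 ± 0.17 (SE; unadjusted p = 0.00459, adjusted p = 0.552), or 1.56-fold, and a dim second probe set had -1.50 with overlapping groups.

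Col4a4, which lies beside Col4a3 in the genome in the opposite orientation, was at 11.53, 11.12, 10.72 and 10.54 in control and 10.18, 10.87, 10.64 and 10.79 in injected retina. The groups overlapped, with a difference of -0.36 ± 0.26 (SE; unadjusted p = 0.208 by limma). Col4a5, the third partner of that trimer, was at 13.94, 14.29, 13.42 and 13.70 against 13.35, 13.63, 12.68 and 13.35. Of its injected values, 3 lay below all control values and replicate 2 lay above the lowest control. The difference was -0.58 ± 0.27 (SE; unadjusted p = 0.0545 by limma), and a second tested probe set had -0.93 ± 0.55.

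Col4a6 was too dim to be tested. Its values were 8.86, 9.14, 9.00 and 8.97 in control and 7.56, 7.81, 8.05 and 8.17 in injected retina, a difference of -1.10 with no overlap. Its control values lay above the floor and its injected values below it. With no filter on dim probe sets its unadjusted p by limma was 0.000807 (adjusted p = 0.44), against 0.0108 for Col4a3 in the same fit. A second, dimmer probe set had -0.24 with overlapping groups.

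The alpha 1 and alpha 2 chains overlapped between the groups. Col4a1 was at 12.63, 12.51, 12.52 and 12.51 in control and 12.72, 12.86, 11.92 and 12.70 in injected retina. On 3 injected arrays it was above all controls and on injected replicate 3 below them, so the mean difference was 0.0070 ± 0.23 (SE). A dimmer tested probe set had -0.86 ± 0.52 (SE), so the 2 probe sets differ in sign. Col4a2 was at 9.87, 10.04, 10.10 and 9.48 against 9.90, 9.66, 9.59 and 8.96 (-0.35 ± 0.25, SE; unadjusted p = 0.193 by limma), and the difference was -0.16 without injected replicate 4.

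**Figure D2:**
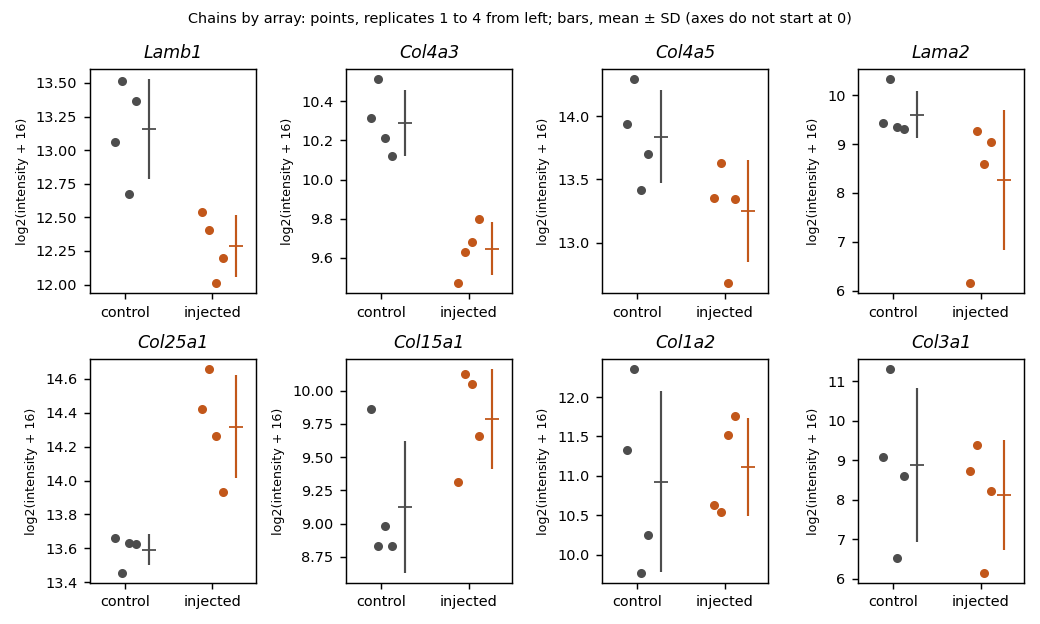
Values of 8 chains on each array as log2(intensity + 16), with points for replicates 1 to 4 from left to right and bars for mean ± SD in control (grey) and injected (orange) retina. Lamb1, Col4a3, Lama2 and Col25a1 do not overlap between groups, while Col1a2 and Col3a1 spread more within the control group than between groups.

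The arrays also differed in markers of the tissue itself. All 7 measured retina markers (Gnat1, Sag, Pde6b, Nrl, Crx, Pax6 and Opn1sw) were well above the floor on every array, as retina should have. Relative to the control mean, their mean stood at -0.48, -0.92, -1.22 and -0.058 in injected replicates 1 to 4, while control arrays lay from -0.027 to 0.052. Opn1sw had the largest difference (-2.07), and the others ran from -0.64 to -0.29. The medians of the list were -0.27, -0.79, -1.03 and 0.046 in injected replicates 1 to 4 and from -0.063 to 0.016 in control. Summed linear intensity ran from 201210 to 213232 in control and from 114014 to 217518 in injected retina. By mean, the list of 10 Müller glia markers, all tested, ran from -0.51 to 0.039 on the injected arrays and from -0.050 to 0.056 on control arrays. Endothelial markers (12 measured, 8 tested) ran from -0.67 to 0.13 against -0.20 to 0.31. Lens markers (9 measured, 3 tested), of a tissue whose capsule is itself a basement membrane, stood at 0.35, 2.63, 1.24 and 0.48 in injected replicates 1 to 4 and from -0.42 to 0.61 in control. On the same scale the 9 tested basement membrane chains stood at -0.70, -0.34, -0.64 and -0.25 on injected replicates 1 to 4 and from -0.17 to 0.14 on control arrays. These 9 include Lama2, tested only through its control values (mean 9.60) and at 6.16 on injected replicate 1. The medians of the 9 were -0.49, -0.31, -0.62 and -0.49 on injected replicates 1 to 4 and from -0.17 to 0.17 on control arrays. By mean, all 16 chains, with the dim ones, stood at -0.27, -0.30, -0.16 and 0.0058 against -0.37 to 0.31 in control, so the groups overlapped. The part of these shifts in the lower values of the chains was not tested, and fewer cells of a type and less RNA per cell cannot be told apart in whole tissue.

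At the fibrillar chains, 0 of 9 tested members had an unadjusted p under 0.05 by limma (0 adjusted), beside 6.68% of all tested genes, and the groups overlapped at all 9. With 9 genes, a count of 0 is near that share and is no result about the class. Col1a2, which with Col1a1 forms type I collagen of sclera and connective tissue, was at 11.33, 12.35, 9.77 and 10.25 in control and 10.62, 10.54, 11.52 and 11.76 in injected retina. Control replicates 2 and 3 were the highest and the lowest of all 8 arrays. The difference was 0.18 ± 0.55 (SE), and it was -0.20 without control replicate 3. Col1a1 was at 8.64, 9.41, 8.27 and 8.54 against 8.84, 8.44, 8.70 and 9.16 (0.068 ± 0.28, SE), again highest in control replicate 2.

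Col3a1, the type III chain of vessel walls and loose connective tissue, varied most among the fibrillar chains. It was at 9.08, 11.30, 6.53 and 8.61 in control and 8.72, 9.38, 6.16 and 8.22 in injected retina. The array with the highest value was control replicate 2, and injected replicate 3 had the lowest. The difference of -0.76 ± 0.98 (SE) became 0.047 without control replicate 2, and the injected mean, 8.12, was below the floor. Col5a2, a type V chain that sets fibril width, was at 9.09, 9.75, 8.70 and 9.21 against 8.71, 9.44, 8.42 and 7.80 (-0.59 ± 0.36, SE; unadjusted p = 0.131 by limma), running from -0.88 without injected replicate 2 to -0.33 without injected replicate 4.

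Among the other fibrillar chains, control values were close together for Col11a1, Col24a1 and Col27a1 and wider for Col5a1, Col5a3 and Col2a1. Col11a1, a type XI chain of vitreous and cartilage fibrils, was at 12.26, 12.41, 12.09 and 12.09 in control and 12.39, 12.96, 12.01 and 12.26 in injected retina (0.19 ± 0.23, SE). Col27a1 was at 11.13, 11.21, 11.19 and 11.24 against 11.01, 11.27, 11.86 and 11.71 (0.27 ± 0.22, SE), with injected replicates 2, 3 and 4 above all controls. Col5a1 (0.30 ± 0.29), Col5a3 (0.20 ± 0.25) and Col24a1 (-0.15 ± 0.28) completed the tested set. Col2a1, the type II chain of vitreous and cartilage, was dim at 9.10, 6.84, 8.39 and 8.94 against 9.19, 7.62, 5.77 and 8.77, and Col11a2 was dim on all 8 arrays (5.49 to 6.60).

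Control replicate 2, the array with the highest Col3a1, Col1a2, Col1a1 and Col5a2, was also the highest for pigment cell and fibroblast markers. The melanin list (9 measured, 8 tested) stood 2.19 above the control mean there and from -1.44 to 0.32 on the other 7 arrays; its summed linear intensity was 228333 against at most 26051 on the injected arrays. The fibroblast list (12 measured, 7 tested) stood 0.72 above there and from -0.55 to 0.064 on the rest, led by Dcn at 13.97 and Lum at 12.30. Its median there was 0.64, against -0.38 to 0.076 elsewhere. Prrx1 (8.39) and the dim Pi16 (5.17) went the other way, with their lowest values on that array. The pericyte and smooth muscle list (10 measured, 7 tested) stood at 0.81 by mean, against -0.80 to 0.43 elsewhere. By median it was at 0.25 there and higher, at 0.39, on injected replicate 4. Acta2 was high on control replicate 2 (14.06), while Kcnj8 (9.57) and Abcc9 (10.93) lay below the other controls. Of the 37 tested members, 14 had their highest value on control replicate 2 and 9 on injected replicate 3. Lowest values went the other way, with 3 on control replicate 2 and 10 on injected replicate 3. The part of these markers in the fibrillar values was not tested.

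Among the 25 other collagens, 1 chain was higher with no overlap between the groups. Col25a1 encodes a transmembrane collagen made by neurons. It was at 13.66, 13.46, 13.63 and 13.63 in control and at 14.42, 14.66, 14.26 and 13.94 in injected retina. All injected values lay above all controls, and replicate 4 was nearest to them. The means were 13.59 ± 0.092 and 14.32 ± 0.30 (SD, n = 4 each). By limma the difference was 0.73 ± 0.20 (SE; unadjusted p = 0.00473, adjusted p = 0.552), or 1.65-fold, and a second tested probe set had 0.84 ± 0.62. The other transmembrane chains had small values, with Col13a1 at 0.19 ± 0.26, Col23a1 at -0.21 ± 0.22 and the dim Col17a1 at -0.35.

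Col15a1, a multiplexin of the zone next to vascular basement membranes, was at 9.87, 8.83, 8.98 and 8.83 in control and 9.32, 10.12, 10.05 and 9.66 in injected retina. Control replicate 1 lay inside the injected range and the other 3 controls below it. The difference was 0.66 ± 0.29 (SE; unadjusted p = 0.0495, adjusted p = 0.714 by limma), and without control replicate 1 it was 0.90. Counting both multiplexins as basement membrane chains adds this 1 gene to the higher side.

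Fibril-associated collagens sit on the surface of fibrils. Of 9 members 7 had a negative difference, beside 49.8% of all genes, among them Col16a1 near 0 and the dim Col9a2. Of the 8 tested, 2 were lower at an unadjusted p under 0.05 by limma, beside 2.91% of all tested genes. Col22a1, found at tissue junctions, was at 8.91, 9.66, 9.53 and 9.26 in control and 7.23, 8.66, 9.31 and 7.50 in injected retina. Injected replicate 3 lay among the controls and the other 3 below them (-1.16 ± 0.44, SE; unadjusted p = 0.0263, adjusted p = 0.709 by limma). Its injected mean, 8.18, was below the floor. Of 2 dim probe sets for it, 1 had -1.12 and 1 had 0.95.

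Col19a1, a chain made by some neurons as well as by matrix cells, was at 12.53, 12.16, 12.00 and 11.90 in control and 11.55, 11.74, 10.95 and 11.90 in injected retina. Injected replicate 4 matched the lowest control and the others lay below (-0.61 ± 0.25, SE; unadjusted p = 0.0369, adjusted p = 0.712 by limma), and a second tested probe set had -0.42 and a dim one 0.36. Col9a1, a type IX chain of the vitreous, was at 14.06, 14.17, 14.15 and 13.91 against 13.85, 13.60, 13.86 and 13.69. Its groups did not overlap, though by only a small gap (-0.32 ± 0.17, SE; unadjusted p = 0.0835 by limma), and a second probe set had -0.52 ± 0.22 (SE; unadjusted p = 0.0413 by limma) with overlap. Col12a1 (-0.38 ± 0.25), Col20a1 (-0.33 ± 0.25), Col14a1 (0.024 ± 0.26) and Col16a1 (-0.0097 ± 0.40) were within 2 SE of 0, and the dim Col9a2 was at -0.40.

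Among the rest, 3 chains had wide array-to-array ranges that overlapped between the groups. Col8a1, a network chain of Descemet's membrane and vessels, was at 13.10, 13.98, 12.29 and 12.43 in control and 11.85, 12.35, 14.60 and 11.37 in injected retina. It was highest on injected replicate 3 and next on control replicate 2. Col9a3 was at 10.91, 11.73, 10.13 and 10.84 against 10.49, 10.72, 12.94 and 9.62, and Col18a1, the source of endostatin, at 10.73, 11.79, 10.04 and 10.17 against 10.72, 9.71, 11.01 and 10.30. Both had control replicate 2 and injected replicate 3 as their highest arrays. By mean, the pigment epithelium list (9 measured, 7 tested, with Best1 and Stra6 below the floor) stood at 0.019, 0.78, -0.48 and -0.32 in control. It stood at -0.54, -1.39, 0.63 and -1.73 in injected retina, with the same 2 arrays on top. Its summed linear intensity ran from 81889 to 159831 in control and from 36787 to 107282 in injected retina. By that sum control replicates 2 (159831) and 1 (132022) were on top, above injected replicate 3 (107282). The part of the list in these chains was not tested. The differences of the 3 chains were -0.41 ± 0.67, 0.039 ± 0.64 and -0.25 ± 0.42 (SE), each smaller than its SE.

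**Figure D3:**
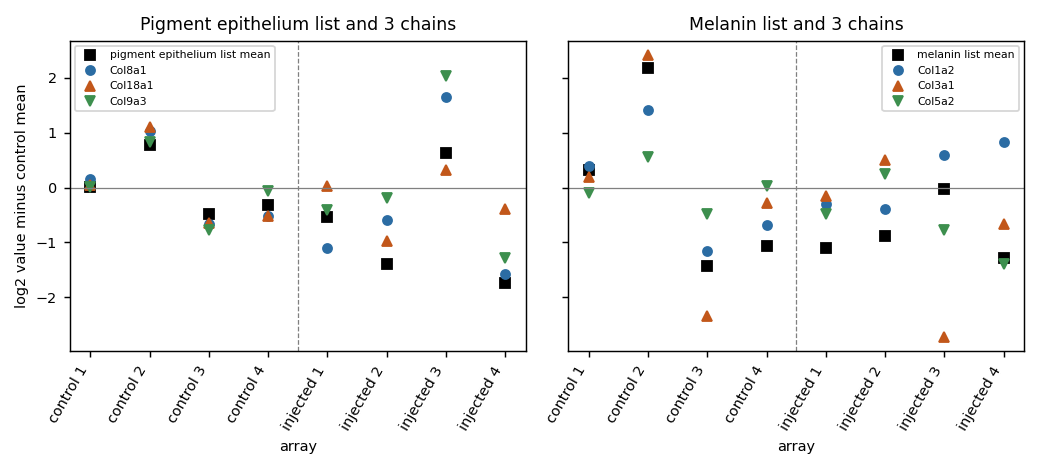
Log2 value minus the control mean on each array for Col8a1, Col18a1 and Col9a3 beside the mean of the pigment epithelium list (left), and for Col1a2, Col3a1 and Col5a2 beside that of the melanin list (right). Control replicate 2 is the highest or second highest array for all 6 chains, and injected replicate 3 is also high for the chains on the left.

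Col8a2, the partner chain of Col8a1, was at 9.43, 9.65, 8.49 and 9.08 in control and 8.47, 7.78, 9.45 and 8.14 in injected retina (-0.70 ± 0.38, SE; unadjusted p = 0.0978 by limma), with an injected mean of 8.46, below the floor. Col7a1, of anchoring fibrils, had 0.31 ± 0.21. Type VI chains, which form beaded filaments, had 0.074 ± 0.27 for Col6a1, -0.12 ± 0.27 for Col6a2 and -0.12 ± 0.36 for Col6a3, with dim values for Col6a4 (-0.74) and Col6a5 (-0.28). Col10a1 and Col26a1 were dim as well (-0.011 and 0.26).

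**Figure D4:**
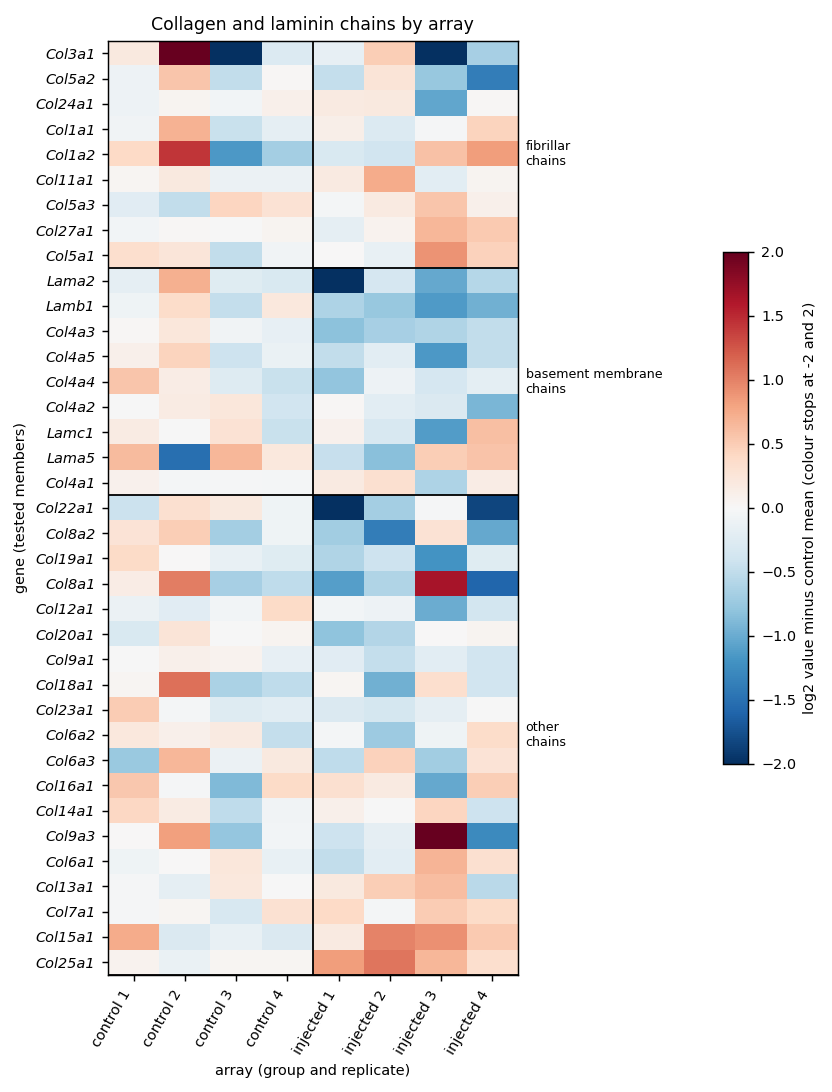
Log2 value minus the control mean (colour, which stops at -2 and 2) for the 37 tested members, in rows by class and by difference, on the 4 control and 4 injected arrays. Basement membrane rows are mostly blue on the injected side, and the columns of control replicate 2 and injected replicate 3 hold the extremes of many rows.

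Of the 18 members with at least 2 tested probe sets, 6 had probe sets of both signs (Col12a1, Col27a1, Col4a1, Col6a2, Col8a1 and Col9a3). The others kept 1 sign over their tested probe sets: Lamb1, Col4a5, Col4a4, Col19a1, Col9a1, Col25a1, Col11a1, Col1a2, Col5a1, Col18a1, Col20a1 and Col23a1.

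Genes that work with these chains were read from 5 lists with 87 different genes, 81 of them measured and 67 tested. At an unadjusted p under 0.05 by limma there were 3 higher and 3 lower (8.96% of 67, near the 6.68% of all tested genes), 0 passed adjusted over all probe sets, and the median difference over the 81 was -0.15. Among 12 tested partners in basement membranes, 2 were higher and 2 lower. Smoc2, a matricellular protein, was at 5.63, 8.47, 8.84 and 6.66 in control and 10.07, 10.51, 9.19 and 9.14 in injected retina, with no overlap (2.32 ± 0.68, SE; unadjusted p = 0.00745 by limma); its control mean was below the floor. Agrn, a heparan sulphate proteoglycan that binds laminin, had 0.58 ± 0.22 (SE; unadjusted p = 0.0246 by limma). Npnt, an integrin ligand, had -0.64 ± 0.25 and Frem2, of embryonic epithelial membranes, had -1.36 ± 0.57 (SE; unadjusted p = 0.0314 and 0.0389 by limma). The injected mean of Frem2, 7.83, was below the floor, so it was tested only through its control values (mean 9.19). Hspg2, which encodes perlecan, had 0.85 ± 0.44.

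Among 19 tested genes of collagen processing, 1 was higher and 1 lower, beside 3.77% higher and 2.91% lower of all tested genes. Pcolce, which speeds removal of the procollagen end peptide, had 0.79 ± 0.29 and Crtap, of the prolyl 3-hydroxylase complex, had -0.72 ± 0.28 (SE; unadjusted p = 0.0235 and 0.0277 by limma), the latter with no overlap. None of 15 tested interstitial matrix genes, 9 matrix receptors and 12 genes of TGF-beta signalling had an unadjusted p under 0.05 by limma (0 of each list, 0 adjusted), beside 6.68% of all tested genes. In lists this small, such counts are near the share of all tested genes and are no result about the lists. The medians over all measured genes of these 3 lists were -0.24, -0.11 and -0.15. Itgb1, the integrin beta 1 chain that pairs with most collagen and laminin receptors, did not overlap between groups (-0.43 ± 0.20, SE; unadjusted p = 0.0639 by limma).

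Lamb1 and Col4a3 kept an unadjusted p under 0.05 by limma under all 18 alternative fits, and Col25a1 under 17, the exception being centring on array medians (0.49, unadjusted p = 0.127). Over these fits Lamb1 ran from -1.11 to -0.65, Col4a3 from -0.72 to -0.53 and Col25a1 from 0.49 to 0.85, and the smallest adjusted p of the 3 was 0.402, 0.269 and 0.228. Col22a1 did so in 12, Col19a1 in 10, Lama2 and Col4a5 in 5 each, and Col15a1 and Col9a1 in 4 each. Lamb1, Col4a3 and Col25a1 had the smallest p of the tested members in the main fit. The alternatives reuse the same arrays, so keeping a small p is no independent support. The share of all tested genes that kept theirs was not counted.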

How the data were processed

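The deposited table holds linear intensities, 1 value for each probe set on each array; the authors' software is not given in the sources used here. From the values, every array has a mean of 2500 once 2% at each end is trimmed, as scaling to a common target gives. After 64 array control probe sets were left out, 45037 remained; 34945 had 1 gene symbol in the platform annotation. Array medians differed by 1.55 times, over the limit of 1.5, so the intensities were quantile-normalised (limma 3.58.1, R 4.3.3). Log2 values are of these deposited intensities plus 16, which understates changes of dim genes. Probe sets at or above the 40th percentile of the mean (27022) were tested with lmFit and eBayes, Benjamini-Hochberg adjusted. The number of arrays limits precision. Members, lists and tests were chosen with earlier results of these data known. Named in full were members with an unadjusted p under 0.05 or groups without overlap, the first 5 of each class by p and a fixed set of main chains; of partner lists, up to 4 genes by p. Same-numbered arrays of the 2 groups were correlated (deviations from group means) at -0.029 to 0.084, and differently numbered ones at -0.13 to 0.12. The numbers thus showed no pairing, and no block was used. Weak correlations cannot exclude that same-numbered samples shared a source. The fit was also run on simulated data with independent noise and planted changes, which hold no shifts between arrays or in tissue make-up. That run does not show how well the fit suits these arrays. Alternatives are in the closing section. Figures used matplotlib 3.10.9.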

Additional observations from a re-analysis of the deposited data

Results flagged for a closer look

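A sample far from the other 3 of its group was found in 7 of 104 groups of 4 arrays (52 members, 2 groups), and chance gives about 1 in 20. Control replicate 1 was high for Col15a1 (9.87, next 8.98) and for Col4a1 (12.63, next 12.52). Control replicate 2 was high for Lama2 (10.32, next 9.43) and low for Col25a1 (13.46, next 13.63). Control replicate 3 was low for the dim Lama3 (5.93, next 8.62) and control replicate 4 for Col6a2 (10.14, next 10.72). Injected replicate 3 was low for Col24a1 (10.03, next 11.09). The ranges were narrow for Col25a1 (0.20 log2 units) and Col4a1 (0.12), so their flags are small in size.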

How the results depend on the processing

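The replicate block moved counts at an unadjusted p under 0.05 to 4 lower for basement membrane chains (2 without it; Col4a5 and Lama2 join), 1 higher and 1 lower for other collagens (2 and 2 without it) and 6 lower for partner genes (3 without it); it made 0 adjusted calls. The higher count of other collagens was 1 with pseudocount 64, no filter, the trended robust prior, array weights, the unmoderated test and without control replicate 2 and injected replicate 3 together, and 0 with centring on array medians. Their lower count was 1 with no filter, the deposited scaling and the unmoderated test, and 4 with array weights. Centring gave 1 higher and 5 lower partner genes. The partner median was -0.035 with the deposited scaling and -0.038 without those 2 arrays. Counting multiplexins with basement membrane chains gave 1 higher. Array weights made 7 higher and 1 lower adjusted calls over all probe sets. The weight was 0.19 for injected replicate 3 and from 0.65 to 1.83 for the other arrays. Signs turned for Col4a1 (-0.037 deposited scaling, -0.23 centring, -0.43 over the mean of its probe sets), Col11a1 (-0.036) and Col1a2 (-0.015) with centring, and Col3a1 with array weights (0.057); without the 2 arrays, for Col3a1 (0.70), Col5a3 (-0.083) and Lamc1 (0.12).

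Leaving out 1 array at a time, medians ran from -0.081 (without control replicate 3) to 0.097 for fibrillar chains, from -0.37 (without control replicate 4) to -0.15 (without control replicate 1) for basement membrane chains (-0.11 with the deposited scaling), from -0.30 to 0.033 (without control replicate 2) for other collagens and from -0.15 to -0.06 for partner genes. Counts ran from 0 to 1 fibrillar lower, 2 to 4 basement membrane lower, 1 to 2 other higher, 0 to 4 other lower, 1 to 4 partner higher and 0 to 4 partner lower. Adjusted calls over all probe sets ran from 0 to 31 higher and 0 to 7 lower, the most without injected replicate 4, and 0 of them were members (smallest adjusted p of any member over the alternatives 0.228). Differences ran from -0.081 to 0.30 for Col1a1, -0.20 to 0.66 for Col1a2, -0.97 to 0.21 for Col2a1, -1.54 to 0.047 for Col3a1, -0.098 to 0.22 for Col4a1, -0.89 to 0.047 for Lama1, -0.30 to 0.66 for Lamb2 and -0.45 to 0.12 for Lamc1. With no turn of sign they ran from -0.48 to -0.16 for Col4a2, -0.88 to -0.33 for Col5a2, 0.10 to 0.45 for Col5a1, 0.0050 to 0.32 for Col11a1, 0.14 to 0.42 for Col27a1, 0.037 to 0.34 for Col5a3 and -1.68 to -0.64 for Lama2. The other 708 comparisons of a result with an alternative stayed within set limits. Genes kept their sign and their side of the adjusted p threshold. Counts changed by at most 1.5 times, and medians by less than their spread among arrays. A median could turn sign within that limit, as that of the fibrillar chains did with centring (-0.036 against 0.068). The cause of each change was not tested. Centring shifted the median of all genes by -0.12; relative to it, basement membrane chains were at -0.17 and fibrillar chains at 0.086. The share of genes on the higher side at an unadjusted p under 0.05 was 56.4%, 68.2% with the deposited scaling and 32.1% with centring.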

Other observations

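Markers of microglia, the resident immune cells of the retina, stood above the control mean on every injected array. Of 10 measured genes 9 had a positive difference, and the mean of the list was 0.53, 0.35, 1.02 and 0.63 in injected replicates 1 to 4 against -0.24 to 0.22 in control retina. Their summed linear intensity ran from 34365 to 58086 in control and from 71313 to 170348 in injected retina, with no overlap. These are descriptions with no test of the list. Astrocyte and Schwann cell markers (6 measured, 4 tested) ran from 0.14 to 0.61 on injected and from -0.25 to 0.23 on control arrays, and the groups overlapped.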
